A study of Mus musculus with 6 samples.

Results

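Tumor-associated macrophages (TAMs) were compared for 10 genes that answer to cyclic AMP or that carry and limit its signal: Crem, Creb1, Nr4a1, Nr4a2, Nr4a3, Pde4b, Pde4d, Per1, Fosl2 and Rgs2. They were taken by symbol from the 39179 gene rows of the deposited count table, where all 10 were found, Pde4d in 2 rows. The macrophages came from C57BL/6 hosts, 8 weeks old, bearing a Braf-mutant melanoma cell line that was either wild type (Ptgs-competent, 3 libraries) or had lost both Ptgs1 and Ptgs2 (Ptgs-deficient, 3 libraries). These are the genes of COX-1 and COX-2, the cyclooxygenases, and only the tumor cells were edited, by CRISPR/Cas9 in 1 parental line, so the macrophages carried intact Ptgs genes in both groups. Each library was a pool of tumors, sorted as live CD45+ CD11b+ F4/80+ cells without NK1.1 or Ly6G and with little or no Ly6C.

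Prostaglandin E2, a product of cyclooxygenases, acts on macrophages through the receptors EP2 and EP4, which are coupled to the stimulatory G protein and raise cyclic AMP. Cyclic AMP activates protein kinase A, which phosphorylates CREB, and CREB bound at cyclic AMP response elements (CREs) switches on a first wave of genes that includes Nr4a receptors, Per1, Rgs2, phosphodiesterases and an inhibitory form of Crem. Most of these genes also answer to other signals, such as growth factors, Toll-like receptor ligands and cell stress. The question was whether their transcripts differ in TAMs when the tumor cells cannot make prostaglandins through cyclooxygenases.

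Of the 10 genes, 9 had enough reads to be tested, and the estimate was higher in the Ptgs-deficient group for all 9, where 50.7% of all 8793 tested genes had an estimate above 0. Nr4a1, Nr4a3 and Rgs2 were higher in every Ptgs-deficient library than in any Ptgs-competent library, while the groups overlapped for Crem, Creb1, Nr4a2, Pde4b, Per1 and Fosl2. Groups that did not overlap, in either direction, were found for 19.0% of all tested genes, 970 of them higher and 704 lower. At the study's threshold, an FDR (the p adjusted over all tested genes) no higher than 0.05 with a log2 fold change of at least 1.5 in size, 0 of the 9 were called by the edgeR quasi-likelihood test, against 0.216% of all genes tested. At an unadjusted p under 0.05 there were 3 members, all higher, where 5.00% of tested genes passed in that direction and 8.83% in either. Only 1, Nr4a1, remained without Ptgs-deficient replicate 1, and 2 or 3 remained without any other library. The median log2 fold change of the 9 genes was 0.62, and that of all tested genes 0.018. It was 1.18 against 0.14 without Ptgs-competent replicate 1, 1.18 against 0.34 in limma voom and 0.58 to 0.996 in the remaining fits other than that with a replicate block. Nr4a3, with fewer than 10 counts in 2 Ptgs-competent libraries, passed the filter on low counts through the Ptgs-deficient libraries, so its direction and its place in these counts were fixed in part by the filter. Creb1 and Pde4b, at 1 and 0 counts in Ptgs-competent replicate 2, also needed the Ptgs-deficient libraries to pass. The tally of members and their median thus depended in part on the filter. The direction of Nr4a2 and Creb1, whose estimates lay at 0.013 and 0.048, turned with the scaling of the libraries, so that 7 of 9 were higher with RLE size factors in place of TMM. Both are scalings that make libraries of unlike composition comparable, and levels are given as CPM, the counts of a gene relative to its library's total, after TMM.

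The promoters of the members were searched for CRE letters. Bases before a RefSeq transcript start are printed for Nr4a1, Nr4a3 and Rgs2, the 3 that separated the groups. Nr4a2 is printed as the third receptor of its family, with the smallest difference in the TMM-scaled edgeR fit. RefSeq promoter windows of GRCm38.p6, 250 bases before and 50 after the transcript start, were found for 9 members (13 windows), Pde4d included and Crem, whose promoter was not analysed here, left out. The Nr4a1 window lies within the annotated span of the gene, before the start of a shorter transcript, and not before the first base of the gene. The full element TGACGTCA was searched on both strands, as was the half-site TGACG, which the full element contains. None of the 9 genes held a full element, which stood in 2.03% of all genes and 3.83% of tested genes in the table. A half-site was found in 6 of the 9 genes, and in 23.05% of all genes and 37.9% of tested genes in the table. The 3 Nr4a genes held 4 half-sites each, a number reached or exceeded in 0.231% of all 32851 windows. Creb1, Fosl2 and Pde4d held none. Each sequence runs 5′ to 3′ on the gene's strand and ends before the first base of an annotated exon. Capitals mark half-sites, written CGTCA where they lie on the opposite strand, and a match of letters does not show that CREB was bound there.
Nr4a1, chr15:101266596-101266845, plus strand: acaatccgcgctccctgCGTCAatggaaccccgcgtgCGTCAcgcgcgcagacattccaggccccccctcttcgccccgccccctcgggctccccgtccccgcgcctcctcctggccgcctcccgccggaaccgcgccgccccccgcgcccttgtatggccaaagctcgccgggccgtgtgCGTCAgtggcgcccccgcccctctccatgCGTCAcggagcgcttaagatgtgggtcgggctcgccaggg
Nr4a2, chr2:57124004-57124253, minus strand: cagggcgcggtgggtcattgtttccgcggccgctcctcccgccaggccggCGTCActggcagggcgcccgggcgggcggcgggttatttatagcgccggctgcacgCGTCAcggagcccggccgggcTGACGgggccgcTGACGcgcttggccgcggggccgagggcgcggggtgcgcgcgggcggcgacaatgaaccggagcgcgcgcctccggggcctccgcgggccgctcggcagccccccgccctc
Nr4a3, chr4:48045055-48045152, plus strand: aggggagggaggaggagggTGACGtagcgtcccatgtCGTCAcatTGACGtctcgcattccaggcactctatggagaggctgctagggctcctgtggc
Rgs2, chr1:144004162-144004399, minus strand: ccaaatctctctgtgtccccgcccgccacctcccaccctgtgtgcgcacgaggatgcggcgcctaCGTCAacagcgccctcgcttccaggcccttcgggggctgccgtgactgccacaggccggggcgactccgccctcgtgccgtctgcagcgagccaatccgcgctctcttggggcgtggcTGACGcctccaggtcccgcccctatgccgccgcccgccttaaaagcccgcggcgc

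**Figure D1:**
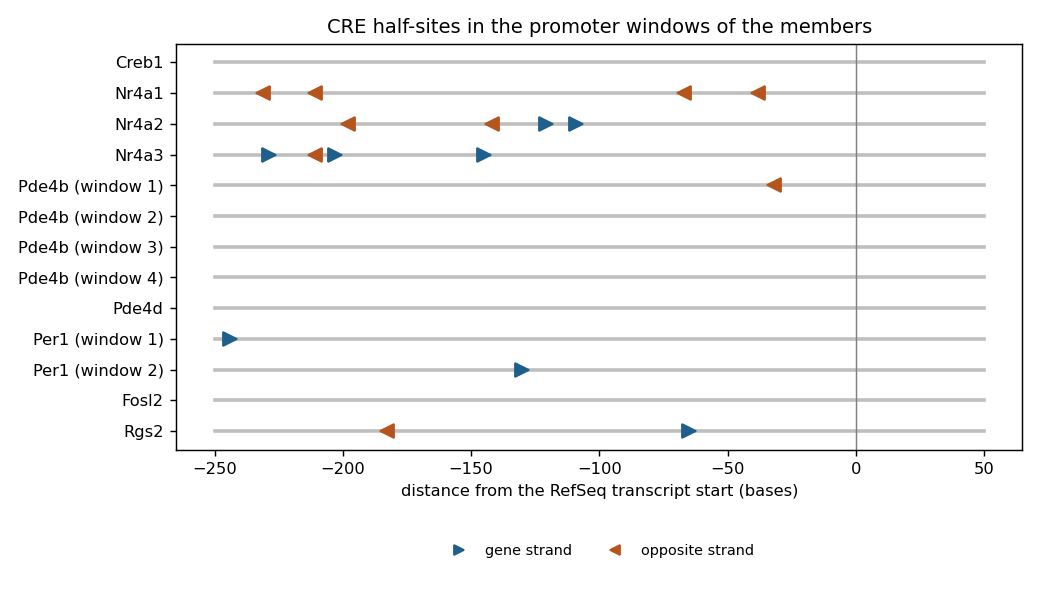
Position of CRE half-sites (triangles, pointing along the strand on which the letters TGACG are read) in each promoter window of 9 members, against distance from the RefSeq transcript start in bases. Nr4a1, Nr4a2 and Nr4a3 each hold 4, Rgs2 holds 2, 1 window of Pde4b and both windows of Per1 hold 1, and the remaining windows hold none.

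The half-sites of Nr4a1 all lay on the opposite strand, 2 of them close to the start at -69 and -40, while those of Nr4a3 clustered between -231 and -201 with a further one at -147, in annotated exon sequence that is not printed. In the Nr4a2 window they stood at -200, -144, -123 and -111. Nr4a2 thus held as many half-sites as Nr4a1 and Nr4a3, with the smallest fold change of the 9 tested members in the TMM-scaled edgeR fit. With RLE scaling Creb1 was smaller in size, at a log2 fold change of -0.028 against -0.062 for Nr4a2.

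The members' levels were read against some facts of the whole series. The 6 libraries held 4431184 to 8760679 counts, and 7794 to 10714 genes had at least 1 count. Replicates of a group were far apart, with a common biological coefficient of variation of 1.26. Ptgs-competent replicate 2 had the fewest genes detected. Ptgs-competent replicate 3 stood apart in its makeup: the 11 macrophage markers found in the table summed to 7264 CPM, against 17651 to 26232 CPM in the other libraries (Adgre1, the F4/80 gene, listed there under its older symbol Emr1 at a mean of 214 CPM in Ptgs-competent and 460.0 CPM in Ptgs-deficient TAMs, is not in these sums), and the 14 melanoma and stromal markers to 1043 CPM, against 107 to 458 CPM. Macrophage markers such as Csf1r, Itgam, C1qa and Lyz2 were read in every library, whereas the pigment cell genes Mlana, Pmel, Tyr, Tyrp1, Dct and Sox10 were at 0 counts throughout. Mitf, the pigment-lineage regulator on the same list, had 12, 0 and 3 counts in Ptgs-competent TAMs and 58, 372 and 88 in Ptgs-deficient TAMs. Ly6g, Ncr1, Cd3e and Cd8a were likewise at 0 counts, but other markers of neutrophils, NK and T cells were read. The neutrophil marker S100a8 had 350 to 1887 counts in each library. Without Ptgs-competent replicate 3, Nr4a1 and Rgs2 were the 2 members with an unadjusted p under 0.05, and still 0 were called by edgeR. NK and T cell markers summed to between 0.621 and 28.8 CPM, the highest in Ptgs-deficient replicate 2, where Gzma had 171 counts and Cd3d 62. In sorted bulk RNA, fewer cells that express a gene and less RNA of it per cell cannot be told apart.

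The Nr4a genes encode orphan nuclear receptors (NUR77, NURR1 and NOR1) that are transcribed within minutes of a stimulus and that shape inflammatory gene expression in macrophages. Nr4a1 (ENSMUSG00000023034; GRCm38 chromosome 15, 101254269 to 101274795) was read at 309, 131 and 154 CPM in Ptgs-competent TAMs, replicates 1 to 3 in order, and at 806, 659 and 701 CPM in Ptgs-deficient TAMs. Every Ptgs-deficient library lay above every Ptgs-competent library, and the lowest of the former was more than double the highest of the latter. The mean level was 198 ± 96.9 and 722 ± 76.0 CPM (SD, n = 3 each), a ratio of 3.65. The log2 fold change was 1.87 ± 0.39 (SE; edgeR quasi-likelihood p 0.000753, adjusted p 0.107).

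Nr4a1 was the member with the smallest p and the only one whose call depended on the test. It passed the threshold in the edgeR likelihood ratio test (adjusted p 0.0115, where 2.74% of genes were called), in the DESeq2 Wald test (adjusted p 0.000330, 3.73%), in limma voom (adjusted p 0.00427, 1.09%), in limma voom with sample quality weights (adjusted p 0.0104, 1.40%) and in the quasi-likelihood test with no filter on low counts (adjusted p 0.00117, 1.89%). Leaving out any 1 library gave log2 fold changes of 1.64 to 2.35 and edgeR adjusted p of 0.0568 to 0.399, without a call. Without Ptgs-competent replicate 3 the log2 fold change was 1.76.

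Nr4a3 (ENSMUSG00000028341; chromosome 4, 48045153 to 48086447) was nearly unread in the Ptgs-competent group, with 77, 0 and 7 counts, and had 490, 528 and 303 counts in the Ptgs-deficient group. On the scaled level these were 12.3, 0 and 1.51 CPM against 89.4, 62.9 and 62.7 CPM. The groups did not overlap, and nearly all Ptgs-competent reads came from replicate 1. Means were 4.59 ± 6.69 and 71.7 ± 15.4 CPM (SD, n = 3 each), and the log2 fold change was 3.95 ± 1.61 (SE; edgeR adjusted p 0.468). The estimate rested on the low counts of that group: it ranged from 3.37 without Ptgs-competent replicate 2 to 6.57 without Ptgs-competent replicate 1, and was above 0 in all 15 alternatives.

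Nr4a2 (ENSMUSG00000026826; chromosome 2, 57106830 to 57124003) showed no such separation. It was read at 34.4, 49.9 and 108 CPM in Ptgs-competent TAMs and at 95.8, 69.9 and 28.8 CPM in Ptgs-deficient TAMs, and both the highest and the lowest value lay in replicate 3 of a group. The means were 64.2 ± 39.0 and 64.8 ± 33.8 CPM (SD, n = 3 each), which gave a log2 fold change of 0.013 ± 0.73 (SE; edgeR adjusted p 0.9995). Summed over the 3 receptors, the family was at 356, 181 and 264 CPM among Ptgs-competent and at 991, 791 and 792 CPM in Ptgs-deficient TAMs. Nr4a1 made up 58.3% to 86.9% of that sum in the first group and 81.3% to 88.5% in the second, and Nr4a3 0% to 3.45% and 7.92% to 9.02%.

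**Figure D2:**
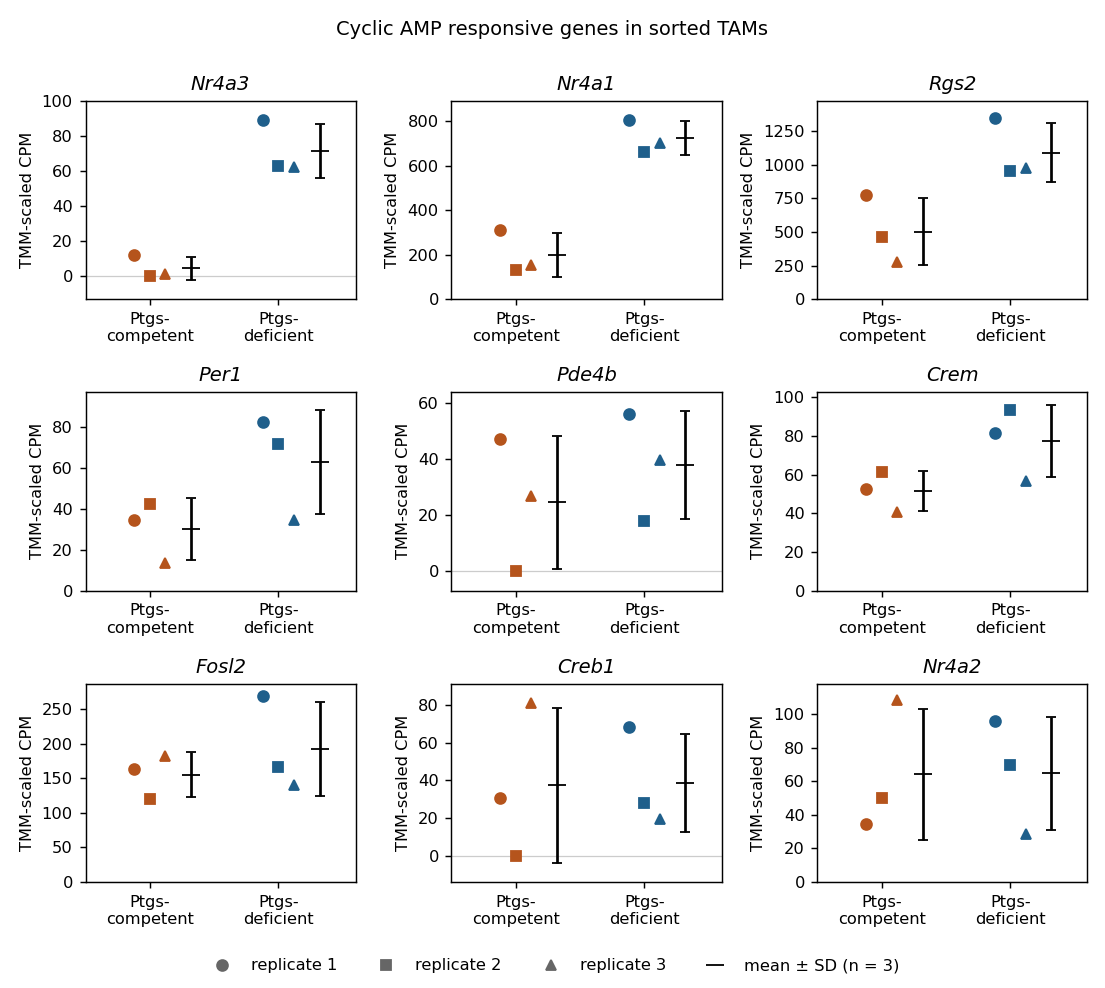
TMM-scaled level (CPM, linear axis) of the 9 tested members in each library, with replicates as symbols and the mean ± SD (n = 3) of each group in black. Nr4a3, Nr4a1 and Rgs2 show Ptgs-deficient libraries that are all above the Ptgs-competent ones, and the remaining 6 genes overlap.

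Rgs2 (ENSMUSG00000026360; chromosome 1, 143999338 to 144004161) encodes a regulator of G protein signaling that speeds the switching off of Gq and also restrains cyclic AMP production. It was read at 770.4, 461 and 274 CPM in Ptgs-competent TAMs and at 1343, 949.8 and 972 CPM in Ptgs-deficient TAMs. The groups did not overlap, and the lowest value was that of Ptgs-competent replicate 3. The means of 502 ± 251 and 1088 ± 221 CPM (SD, n = 3 each) stood in a ratio of 2.17, and the log2 fold change was 1.12 ± 0.40 (SE), with an unadjusted p of 0.0189 and an adjusted p of 0.376 in edgeR. Without Ptgs-competent replicate 3 the log2 fold change was 0.87, the lowest of all alternatives, and without Ptgs-competent replicate 1 it was 1.57, the highest.

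Per1 (ENSMUSG00000020893; chromosome 11, 69095217 to 69109960), a circadian repressor that CREB induces directly, was at 34.6, 42.3 and 13.4 CPM against 82.3, 71.9 and 34.4 CPM. Only Ptgs-deficient replicate 3 fell into the range of the Ptgs-competent group. The means were 30.1 ± 15.0 and 62.9 ± 25.2 CPM (SD, n = 3 each), which gave a log2 fold change of 1.06 ± 0.85 (SE; edgeR adjusted p 0.994). Fosl2 (ENSMUSG00000029135; chromosome 5, 32135801 to 32157842), which encodes the AP-1 subunit FRA-2, was at 164, 119 and 182 CPM against 269, 166 and 140.1 CPM. Its groups overlapped, and its log2 fold change was 0.31 ± 0.41 (SE; edgeR adjusted p 0.9995).

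The CREB family members proper did not separate the groups. Crem (ENSMUSG00000063889; chromosome 18, 3266048 to 3337748) encodes activators and, from an internal promoter, the inducible repressor ICER, and a count per gene does not distinguish them; the overlapping antisense gene Gm6225 had 0 counts. It was read at 52.3, 61.2 and 40.7 CPM in Ptgs-competent TAMs and at 81.7, 93.4 and 56.7 CPM in Ptgs-deficient TAMs. Here too Ptgs-deficient replicate 3 alone reached into the other group. The means were 51.4 ± 10.3 and 77.3 ± 18.7 CPM (SD, n = 3 each), and the log2 fold change of 0.59 ± 0.62 (SE) was smaller than its error, with an edgeR adjusted p of 0.9995. Creb1 (ENSMUSG00000025958; chromosome 1, 64532645 to 64604548), the constitutive activator that protein kinase A phosphorylates, had 192, 1 and 376 counts against 373, 234 and 95. A single read in Ptgs-competent replicate 2, where every other library had 95 or more, left its log2 fold change at 0.048 ± 1.46 (SE), and without that library it was -0.53.

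The phosphodiesterases break down cyclic AMP, and those of the PDE4 class are induced by it and close the loop. Pde4b (ENSMUSG00000028525; chromosome 4, 102087543 to 102607259) had 295, 0 and 124 counts in Ptgs-competent TAMs and 307, 151 and 191 in Ptgs-deficient TAMs. The single 0 again fell on Ptgs-competent replicate 2. The means were 24.6 ± 23.6 and 37.8 ± 19.1 CPM (SD, n = 3 each), and the log2 fold change of 0.62 ± 1.65 (SE) became 0.036 without that library. Pde4d (ENSMUSG00000021699; chromosome 13, 108449948 to 109953461, and a second identifier under the same symbol) had 0 counts in every library. At the depth of these libraries, a count of 0 allows up to 0.357 to 0.647 CPM (3 counts, counting error only), so that a lower level was not detectable.

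**Figure D3:**
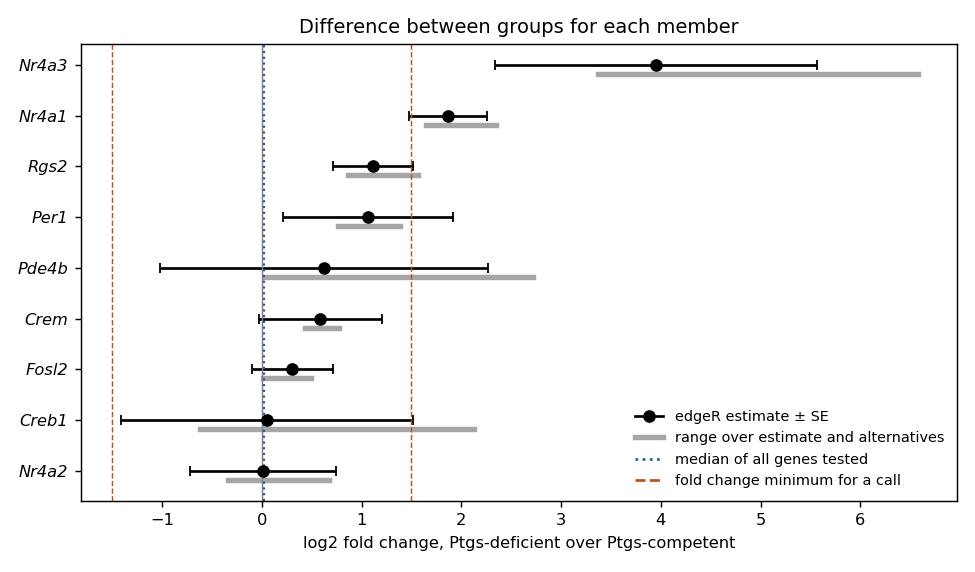
Log2 fold change (Ptgs-deficient over Ptgs-competent) of each tested member with its SE (black), the range over that estimate and all alternatives (gray), the median of all tested genes (dotted) and the fold change minimum for a call (dashed). The ranges of Nr4a3 (3.37 to 6.57) and Nr4a1 (1.64 to 2.35) lie wholly above that minimum, and those of Creb1 and Nr4a2 span 0.

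Rgs2 and Nr4a1 had the highest mean levels of the set, in which counts of 3′ ends do not scale with transcript length. The 10 genes summed to 1455, 865 and 882 CPM among Ptgs-competent and 2892, 2119 and 2054 CPM among Ptgs-deficient TAMs, without overlap. Without those 2 genes the sums were 375, 273 and 454 CPM against 742, 510.3 and 382 CPM, and the groups overlapped. Over the 6 libraries, Pearson correlations of log2 CPM between members ranged from -0.27 to 0.98 over 36 pairs, with a median of 0.52 and 28 pairs above 0. Taken as deviations from the group means they had a median of 0.18. These are descriptions over 6 libraries in 2 groups, in which all genes of a library share its depth and its group.

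The genes most like Nr4a1 in their level over the 6 libraries were Atp1b3, Ddhd1, Rnase6, Cybb and Tmem71, with Pearson correlations of log2 CPM of 0.999, 0.998, 0.993, 0.993 and 0.993. In all 5 the groups did not overlap, with the Ptgs-deficient side higher, which follows from their choice by likeness to Nr4a1 over the same libraries. Ddhd1, Rnase6 and Tmem71 were nearly unread in Ptgs-competent TAMs, at means of 0.53, 1.22 and 0.64 CPM against 12.5, 31.5 and 26.5 CPM. They needed the Ptgs-deficient libraries to pass the filter, so their correlations rest on low counts. Cybb, which encodes the large subunit of the phagocyte NADPH oxidase, was at a mean of 94.7 and 444 CPM, and Atp1b3, a subunit of the sodium-potassium pump, at 133 and 374 CPM. Their edgeR adjusted p of 0.0762 and 0.190 did not pass the threshold.

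The machinery around the members was read from lists of receptors, G proteins and cyclases, kinase subunits, other phosphodiesterases and CREB partners. Of 53 genes on the last 4 lists, 27 were tested, of which 17 were higher, 10 lower and 0 called by the edgeR quasi-likelihood test. The median log2 fold change was 0.62. Without overlap, 5 were higher and 2 lower, where 19.0% of all tested genes did not overlap in either direction. At an unadjusted p under 0.05 there were 2, where 8.83% of all tested genes passed in either direction. Those 2 were Pkib, an inhibitor of protein kinase A, and Adcy9, an adenylate cyclase. Pkib had 0 counts in Ptgs-competent TAMs and 165, 322 and 64 in Ptgs-deficient TAMs. Against a floor of 3 counts per library it was at least 50.5-fold higher. Adcy9 had 0 against 150, 123 and 31 counts, at least 29.9-fold higher against that floor. The floor covers counting error only and not the spread between libraries, so these folds do not bound the difference between the groups. The edgeR quasi-likelihood adjusted p of Pkib and Adcy9 were 0.275 and 0.376. Both passed the filter on low counts only through the Ptgs-deficient libraries and so could differ in 1 direction only. The edgeR likelihood ratio test and DESeq2 each called 1 gene in the list of G proteins and cyclases and 1 in that of kinase subunits. The groups also did not overlap for the inhibitory subunit gene Gnai3, which likewise needed the Ptgs-deficient libraries to pass the filter, at 90, 7 and 2 counts against 273, 281 and 249, with a log2 fold change of 3.07 ± 1.63 (SE; edgeR adjusted p 0.746), or for the catalytic subunit gene Prkacb, at a mean of 35.9 and 82.7 CPM. The stimulatory subunit Gnas was at a mean of 103 and 228 CPM and the inhibitory subunit Gnai2 at 1385 and 1112 CPM, with overlapping groups and log2 fold changes of 1.15 ± 0.66 and -0.32 ± 0.34 (SE). The catalytic kinase subunit Prkaca was at 161 and 166 CPM, the regulatory subunit Prkar1a at 297 and 222 CPM, the cyclic AMP sensor Rapgef3 at 61.5 and 7.63 CPM and the cyclase Adcy7 at 52.0 and 85.1 CPM, all with overlapping groups.

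Among the other phosphodiesterases, Pde3b and Pde7a lay lower without overlap on the scaled level. Pde3b had 208, 297 and 307 counts in the Ptgs-competent and 0, 47 and 60 in Ptgs-deficient TAMs, a log2 fold change of -3.04 ± 1.71 (SE; edgeR adjusted p 0.797). Pde7a had 121, 172 and 207 counts against 0, 126 and 15, and a log2 fold change of -2.34 ± 2.01 (SE). Pde2a was higher without overlap, at 133, 56 and 1 counts against 264, 235 and 120, with a log2 fold change of 1.72 ± 1.66 (SE). Pde3b and Pde7a, at 0 counts in 1 Ptgs-deficient library, needed the Ptgs-competent libraries to pass the filter, and Pde2a, at 1 count in 1 Ptgs-competent library, needed the Ptgs-deficient ones. No edgeR call was made in this list, and 0 of its 4 tested genes had an unadjusted p under 0.05. In the CREB partner list the groups overlapped for all 10 tested genes, among them Creb3, Crebzf, Ep300 and Sik1.

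The receptors that feed this pathway were read at low counts. Ptger4, which encodes EP4, had 230, 3 and 0 counts in the Ptgs-competent and 191, 622 and 382 in Ptgs-deficient TAMs, a log2 fold change of 2.34 ± 1.77 (SE; edgeR adjusted p 0.974). Ptger2, which encodes EP2, had 51, 117 and 0 counts against 0, 22 and 0. The groups overlapped for both. Adora2b, an adenosine receptor gene, had 91, 0 and 0 counts against 231, 318 and 277. The prostacyclin receptor gene Ptgir had 0 counts in Ptgs-competent TAMs and 76, 116 and 142 in Ptgs-deficient TAMs (edgeR adjusted p 0.346). Against the same floor it was at least 35.3-fold higher, by counting error only and without the spread between libraries. Ptgir too passed the filter only through the Ptgs-deficient libraries, so its direction was fixed by it. Adora2b and Ptger4 reached 10 counts in 1 Ptgs-competent library each and also needed the Ptgs-deficient libraries to pass. Of the 6 tested receptors, 4 were higher, these 3 among them, and 2 lower, a split that the filter fixed in part. The edgeR quasi-likelihood test called 0, and the edgeR likelihood ratio test and DESeq2 called 1 each.

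Further genes known to be induced by cyclic AMP were more often higher than lower. Of 35 listed, 29 were tested, 19 were higher and 10 lower, the median log2 fold change was 0.82, and 10 had an unadjusted p under 0.05, all higher. The edgeR quasi-likelihood test called 0 of them, or 6 with no filter on low counts, while the edgeR likelihood ratio test called 4, DESeq2 4 and limma voom 5. Egr1, a zinc finger factor of the immediate-early response, was at a mean of 231 and 995 CPM, Fosb, an AP-1 subunit, at 124 and 593 CPM, and Klf4, a Kruppel-like factor, at 244 and 907 CPM. Their log2 fold changes were 2.11 ± 0.38, 2.26 ± 0.42 and 1.89 ± 0.36 (SE), with edgeR adjusted p of 0.0762, 0.0762 and 0.0773. Btg2, an antiproliferative gene, was at 213 and 617 CPM. Members of the list that lay lower without overlap were Thbs1 (thrombospondin 1, 162 and 81.8 CPM), Dusp5 (109 and 57.1 CPM) and Id1 (14.3 and 2.80 CPM), none with an unadjusted p under 0.05. Ptgs2, itself a CREB target, was at 55.3 and 27.7 CPM with overlapping groups.

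**Figure D4:**
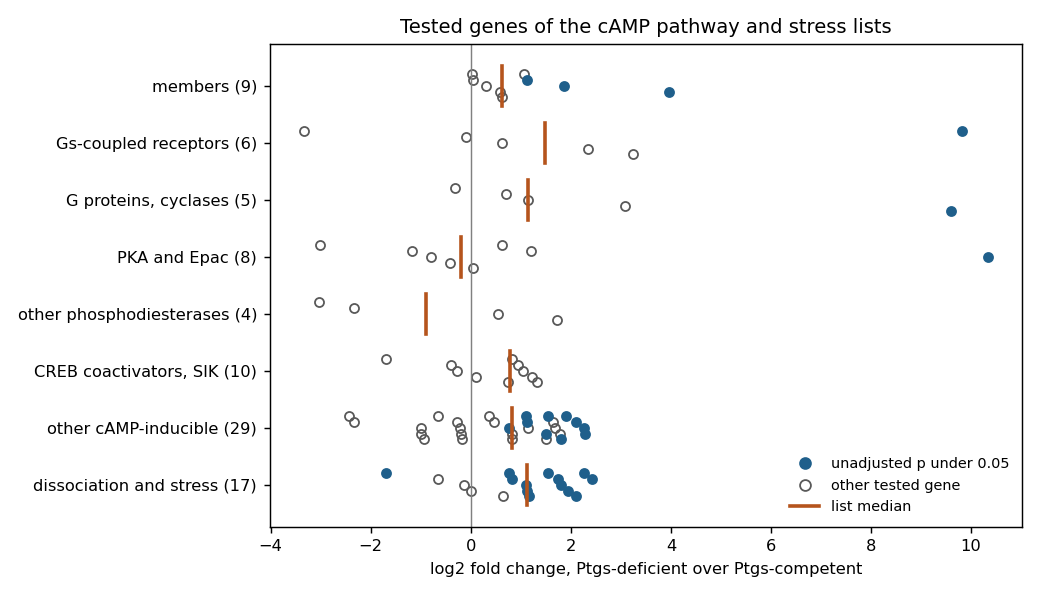
Log2 fold change (Ptgs-deficient over Ptgs-competent) of each tested gene in 8 lists, with the number tested in brackets, genes at an unadjusted p under 0.05 filled and the list median as a bar. The 3 points near 10 are Pkib, Adcy9 and Ptgir, whose Ptgs-competent libraries are all at 0 counts, so that their position depends on the prior count of the fit.

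The same direction was found in genes that answer to tissue dissociation and stress. Of the 17 on that list, all tested, 14 were higher and 3 lower, the median log2 fold change was 1.12, and 12 were higher at an unadjusted p under 0.05. The edgeR quasi-likelihood test called 0 of the 17, or 7 with no filter on low counts, while the edgeR likelihood ratio test called 5, DESeq2 6 and limma voom 6. The list shares 8 genes with the cyclic AMP-inducible list, and 7 of the 10 genes higher there at an unadjusted p under 0.05 are among them. None of the 10 members is on it, but the list was written by hand, so this does not set the members apart from the stress response. The stress list summed to 8041 to 10789 CPM among Ptgs-competent and 15128 to 16019 CPM in Ptgs-deficient TAMs. Hspa1a, a heat shock protein gene, was at 161 and 617 CPM (log2 fold change 1.94 ± 0.36, SE; edgeR adjusted p 0.0764), while Hsp90aa1 was lower, at 892 and 276 CPM. The part of this response in the levels of Nr4a1, Nr4a3 and Rgs2 was not tested.

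Summed markers of macrophages and of other cells differed in level between the groups, with few calls. Of the 11 general macrophage markers, all tested, 9 were higher and 2 lower, 5 higher without overlap and 4 higher at an unadjusted p under 0.05, with 0 called by the edgeR quasi-likelihood test. Their sums of 7264 to 18617 CPM in the Ptgs-competent and 21776 to 26232 CPM in the Ptgs-deficient group did not overlap. Of 10 tissue macrophage markers, 7 were tested and all 7 were higher without overlap, summing to 354 to 891 CPM among Ptgs-competent and 1990 to 2287 CPM in Ptgs-deficient TAMs; the edgeR quasi-likelihood test called Cd5l alone, though not when replicate 1 of either group or Ptgs-deficient replicate 3 was left out, and Clec4f was at 0 counts throughout. With no filter on low counts, in the edgeR likelihood ratio test and in DESeq2, 5 of these markers were called, and in limma voom 3. Timd4, Siglec1 and Cd5l had at most 3 counts in any Ptgs-competent library and passed the filter only through the Ptgs-deficient group, so that the count of 7 was fixed in part by the filter. Of 14 melanoma and stromal markers, 7 were tested, 6 lower and 1, Mitf, higher, with sums of 395 to 1043 CPM against 107 to 118 CPM. Mitf needed the Ptgs-deficient libraries to pass the filter, and Col3a1, Col1a1 and Pdgfrb needed the Ptgs-competent ones, so the filter fixed this split in part. Sparc, a matrix glycoprotein gene, was at a mean of 302 and 25.7 CPM. The edgeR quasi-likelihood test called 0 of this list, and 1 was called with no filter on low counts, in the edgeR likelihood ratio test, in DESeq2, in voom with quality weights and with a replicate block. Of 10 neutrophil markers, 6 were tested, 2 higher and 4 lower, with sums of 621 to 724 CPM against 452 to 532 CPM. S100a8 and S100a9 were lower without overlap, at means of 287 against 137 CPM and 223 against 133 CPM. Retnlg was higher without overlap, at 32.1 against 139 CPM. The part of all these markers in the difference of the members was not tested.

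**Figure D5:**
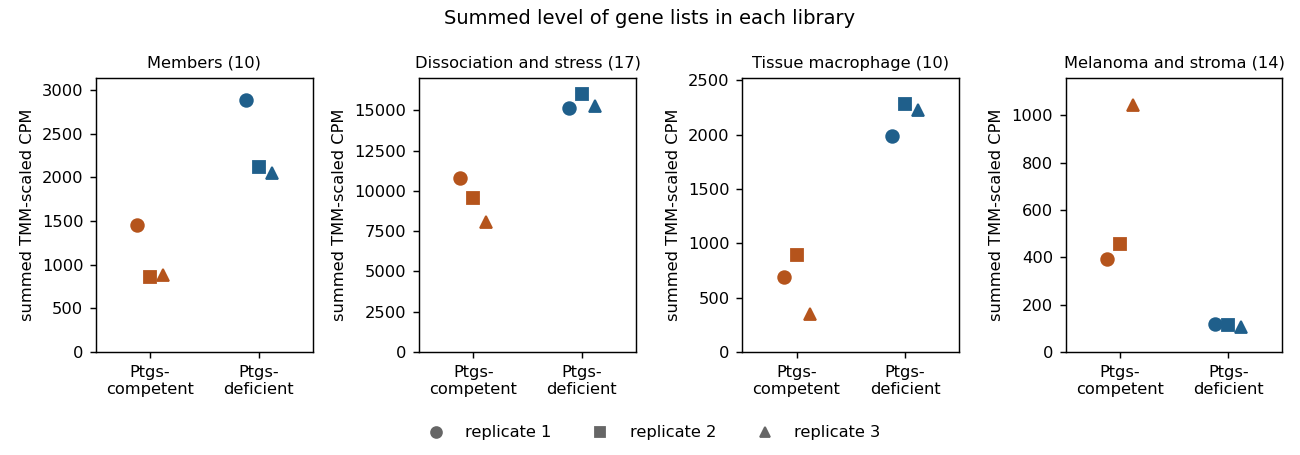
Summed TMM-scaled CPM in each library (symbols are replicates; linear axes from 0) for the 10 members, the 17 dissociation and stress genes, the 10 tissue macrophage markers and the 14 melanoma and stromal markers. The first 3 sums are higher in all Ptgs-deficient libraries, the last is higher in all Ptgs-competent libraries and highest, at 1043 CPM, in replicate 3.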

How the data were processed

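The authors deposited a single table of raw counts per gene from QuantSeq 3′ libraries made with 800 pg of total RNA. Per the study's methods, reads were trimmed with BBDUK, fqtrim and cutadapt, aligned with STAR to GRCm38 and assigned by featureCounts to genes of an Ensembl annotation of that build, whose release the methods name. Tool versions, the strand setting and the treatment of multiply aligned reads are not given in the sources used here. A count stands for reads from transcript 3′ ends without molecular identifiers, and does not scale with transcript length. Library totals ranged from 4431184 to 8760679, and no column lay outside the 6 libraries.

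The tests were run in edgeR 4.0.16 (R 4.3.3): filterByExpr (minimum count 10, minimum total 15), TMM scaling and the quasi-likelihood test, two-sided, with Benjamini-Hochberg adjustment over 8793 genes, tested on simulated data beforehand. SEs are the absolute log2 fold change over the square root of F. Log2 CPM used a prior count of 2. Alternatives were RLE or no scaling, other filters, the edgeR likelihood ratio test, DESeq2 1.42.0, limma 3.58.1 voom, a replicate block and leaving out each library. Replicates were separate tumor pools. Positions are from GENCODE M21 (GRCm38), counted from 1. Gene lists were written by hand, and the members and lists were chosen with earlier results of these data known. All members were named, then called genes or those with the smallest p in each pathway list, the 5 genes most like the member of smallest p, and abundant markers; other named genes were chosen after their values were seen.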

Additional observations from a re-analysis of the deposited data

How the results depend on the processing

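The 9 tested members numbered 0 calls with RLE scaling, library totals, a minimum count of 50 and no fold change minimum, and in the 6 fits without a library (0 to 0). There was 1 call, Nr4a1, with no filter on low counts, the edgeR likelihood ratio test, the DESeq2 Wald test, limma voom, limma voom with sample quality weights and a replicate block, at log2 fold changes of 1.87, 1.87, 1.83, 1.94, 1.81 and 1.97. Over all genes, 19 calls became 252, 241, 328, 96, 123 and 77 in these fits, and 0 to 25 when 1 library was left out. The cause was not tested.

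Crem, Fosl2, Nr4a1, Nr4a3, Pde4b, Per1 and Rgs2 kept an estimate above 0 in all 15 alternatives. Creb1 reversed with RLE scaling (-0.028) and in DESeq2 (-0.028), and ranged from -0.62 to 1.35 when 1 library was left out. Nr4a2 reversed with RLE scaling (-0.062), library totals (-0.023), a minimum count of 50 (-0.0044) and DESeq2 (-0.061), and ranged from -0.34 to 0.68 when 1 library was left out. In limma voom, voom with quality weights and the replicate block, Creb1 was at 2.13, 1.72 and 1.46 and Nr4a2 at 0.17, 0.081 and 0.069, where the median of all genes was 0.34, 0.39 and 0.26. That median lay between -0.058 and 0.14 otherwise.

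No pairing by replicate number was visible: deviations of same-numbered libraries correlated at -0.049, -0.022 and -0.022, and no library correlated best with its own number. All correlations across the groups lay between -0.049 and 0.045. With 3 libraries a group that lie far apart, the check cannot decide whether replicates were paired. The replicate block moved the calls from 19 to 77, called 3 cyclic AMP-inducible genes, 4 stress genes and 3 tissue macrophage markers, and put the median of the members at 1.22. With 3 libraries a group and low counts in Creb1, Pde4b and Nr4a3, only large differences can be resolved for these genes.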
